A study of Xenopus laevis with 2 samples.

Results

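The mitochondrial energy genes examined here were the array probes described as subunits of the respiratory chain or the ATP synthase, as mitochondrial ribosomal proteins, or as translocases of the mitochondrial membranes. They were found by searching the annotation of each gene probe for the names NADH dehydrogenase, succinate dehydrogenase, ubiquinol-cytochrome c, cytochrome c oxidase, ATP synthase, mitochondrial ribosomal protein, and translocase of the inner or outer mitochondrial membrane. The search returned 36 of the 21495 gene probes, with 35 different gene names. The search itself used no measured value, but earlier results of these data were known when it was set.

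The RNA came from Xenopus laevis animal caps, the prospective ectoderm of the blastula, dissected at stage 9. In active EBF3 caps, embryos had received 1 ng of mRNA for hGR-Xebf3, which joins the transcription factor EBF3 to the human glucocorticoid receptor's hormone-binding domain. The caps were held with 30 µM dexamethasone (DEX), the hormone that switches the fusion on, for 4.5 hours. In hGR caps, embryos had received 0.4 ng of mRNA for hGR, and the caps had the same DEX treatment, so this group carried the hormone without EBF3. Untreated caps carried hGR-Xebf3 and were held for 4.5 hours without DEX. The labels name no Noggin, the neural inducer, for either array. The mRNA was injected at the one-cell stage and is not restricted to a cell type, and the hGR dose differed from the hGR-Xebf3 dose.

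Each treated group was hybridised once, labelled with Cy3, against untreated caps labelled with Cy5, and both arrays share that untreated condition. The values below are log2 ratios of treated over untreated signal, positive where the treated caps were higher. With 1 array per comparison and no dye swap, there was no replicate error and no test, dye bias of a probe and response cannot be told apart, and slide and group cannot be told apart. The ± after a log2 ratio is the spot error of the scanner software on the log2 scale, which covers that spot only. In pooled tissue of this kind, fewer cells of a type and less RNA per cell cannot be told apart.

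Mitochondria pass electrons from NADH and succinate along complexes I, II, III and IV to oxygen, and the proton gradient this builds drives the ATP synthase, complex V. Most subunits are encoded in the nucleus and imported through the translocases of the outer and inner membranes, while a small set is encoded by mitochondrial DNA and made on the mitochondrial ribosome. The amphibian egg lays down a large maternal store of mitochondria that is shared out among the cells of the early embryo.

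Over the whole array, 10690 gene probes were measured with active EBF3 caps and 10422 with hGR caps, where measured means well above background in both channels and not flagged as a non-uniform spot. The untreated samples of both arrays gave a view of array-to-array spread, and whether they came from the same RNA extract is not stated. Their log2 signals differed with an SD of 0.16 over 9944 probes measured on both arrays, around a median shift of 0.24 towards the active EBF3 array. Of 8 epidermal markers, 7 were well above background in all 4 channels, and of 4 blood markers 1 was, as was 1 of 4 neural and 3 of 17 muscle probes. The summed signal of the epidermal list was 691752 in active EBF3 caps and 936427 in hGR caps, against 1182175 and 901692 in untreated caps on the same arrays. Most of each sum came from LOC397756 (415421 and 613104, against 815528 and 565158). Unlike the sum, krt8-prov and krt18-prov were above untreated caps with active EBF3, with log2 ratios of 0.10 and 0.25. The other epidermal probes above background were below untreated caps there, at -4.83 (krt1-2-prov), -4.52 (MGC68905), -1.94 (dlx3-A-prov), -0.97 (LOC397756) and -0.65 (AY591750). The summed signal of the muscle list was 41672 in active EBF3 caps and 28648 in hGR caps, against 25867 and 22416 in untreated caps. Most of each sum came from 1 probe, LOC397760 (36743 and 26464, against 22925 and 20031). The 3 muscle probes above background in all 4 channels had log2 ratios with active EBF3 of 2.95 (mlc1av-A), 0.68 (LOC397760) and 0.24 (acta1-prov). With hGR theirs were 0.65, 0.40 and 0.13. The other muscle probes were above background in some channels or in none. Of those above it in some, MGC64405 was lower in active EBF3 than in untreated caps (206 against 462). MGC64256, tnnc1, ckm-prov and tnnt3a-prov were higher there. The neural sum was 129184 in active EBF3 caps and 86175 in hGR caps, against 111011 and 96416 in untreated caps, and the mesendoderm sum was 8150 and 3249, against 5607 and 4621. Nearly all of the neural sum came from sox3 (128732 and 85614, against 110465 and 95905). Most of the mesendoderm sum came from Brat (7483 and 2626, against 4789 and 4008). The muscle list had 9 probes and the mesendoderm list 3 above background in no channel, and the part of these lists in the results below was not tested.

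The energy genes found by the search names were broadly detected in the caps. Of the 36 probes, 31 were well above background in all 4 channels, which is 86.1% against 47.5% of all gene probes. Another 4 were above background in no channel: both probes for subunit I of cytochrome c oxidase matched to fish sequences (BM192316 and BF614733), the probe for the ATP synthase a chain (BG730522), and mrps12-prov, a small-subunit ribosomal protein. The remaining probe, BI937236 for cytochrome c oxidase VIII-heart, was well above background on the hGR array only. Non-uniform spots removed atp5b-prov and MGC85529 from both arrays and MGC68780 from the active EBF3 array. This left 28 members measured with active EBF3 caps, 30 with hGR caps and 28 with both, and none was saturated. The share was lower among 24 probes for the same machinery annotated under other wordings. Of these, 15 were measured with active EBF3 caps and 14 with hGR caps, so detection differed with the search names. No member was an inner membrane translocase.

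No measured member reached a 2-fold difference on either array. On the active EBF3 array, 0 of 28 members were 2-fold or more above untreated caps and 0 were 2-fold or more below, where 2.51% and 2.41% of all measured gene probes were. On the hGR array the counts were 0 and 0 of 30, beside 0.864% higher and 1.44% lower among all measured probes. Between active EBF3 and hGR caps, 0 of 28 were 2-fold higher and 0 were 2-fold lower, beside 3.08% and 3.49% of 9944 probes. With so few members these shares would put about 1 probe or fewer past 2-fold, so the counts of 0 are not a result that sets the energy genes apart.

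A 1.5-fold threshold gave few more. On the active EBF3 array 0 members were 1.5-fold higher and 0 were 1.5-fold lower, beside 5.29% and 5.8% of all measured probes. On the hGR array 2 of 30 were 1.5-fold higher and 0 were lower, beside 4.87% and 4.7%. For the difference between active EBF3 and hGR caps, 0 of 28 were 1.5-fold higher and 3 were 1.5-fold lower, beside 7.63% and 8.2%. Both higher members on the hGR array, BF611101 and AW148041, were among the 3 lower in active EBF3 than in hGR caps, which shared the same hGR values. BF611101 passed 1.5-fold, a log2 ratio of 0.585, only narrowly on the hGR array, at 0.587. It fell below that line with normexp and with median centring (0.43 to 0.55), and AW148041 did so with a normexp offset of 50 (0.34).

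The middle of the group lay near 0 in every comparison. The median log2 ratio of the members was 0.05 on the active EBF3 array (quartiles -0.14 and 0.17, n = 28) and 0.06 on the hGR array (quartiles -0.03 and 0.17, n = 30), and median centring in place of LOWESS put both just below 0, at -0.01 and -0.02. Over all measured probes the medians were 0.00 and 0.01. The median difference between active EBF3 and hGR caps was 0.05 for the members (n = 28) and 0.01 for all probes.

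**Figure D1:**
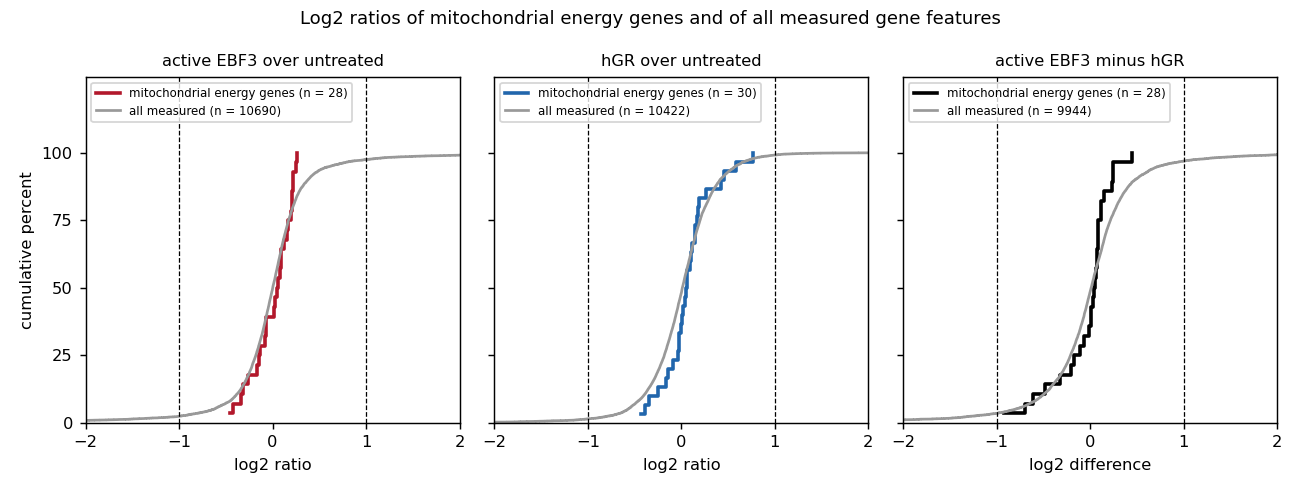
Cumulative percent of probes (vertical axis) by log2 ratio on the active EBF3 array, log2 ratio on the hGR array, and log2 difference between active EBF3 and hGR caps (horizontal axes), for the energy genes (coloured or black line) and all measured gene probes (grey line). Dashed lines mark 2-fold; all energy genes lie inside them, between -0.46 and 0.26 for active EBF3 caps and between -0.43 and 0.76 for hGR caps, while the grey lines run past both.

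The spread of the members was narrower than that of the whole array, though only slightly so by the interquartile range with active EBF3. Their log2 ratios had an SD of 0.21 with active EBF3 and 0.26 with hGR, against 0.55 and 0.39 over all measured probes. The interquartile ranges were 0.31 with active EBF3 and 0.20 with hGR for the members, against 0.35 and 0.38 for all measured probes. A narrow spread was not particular to the energy genes. With active EBF3 and with hGR, SDs were 0.15 and 0.22 for 21 cytoplasmic ribosomal protein probes, and 0.11 and 0.05 for 5 proteasome subunits. The members were also bright, with a median processed signal over the 4 channels of 7727 against 1921 for probes measured on both arrays, a signal that depends on the probe as well as on the RNA. Among all probes at least as bright as the dimmest member measured on both arrays, 2.52% were 2-fold higher and 3.03% 2-fold lower with active EBF3, and 0.698% and 1.73% with hGR. This brightness limit was chosen after seeing the data, and the shares were close to those of the whole array.

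Spot error set a finer scale. The log2 ratio lay beyond 2 spot errors from 0 for 2 of 28 members on the active EBF3 array, where 18.8% of all measured probes did, and for 6 of 30 members on the hGR array, where 21.5% did. In active EBF3 caps these were ndufv1-prov and MGC53772, both lower than in untreated caps. For the difference between active EBF3 and hGR caps, 4 of 28 members lay beyond 2 combined spot errors, beside 17.4% of all probes. None of these 3 counts was above the share over all probes, so they are not a result that sets the energy genes apart. The 4 members were ndufv1-prov, AW767623, BF611101 and AW148041, and all 4 had a lower ratio to untreated caps with active EBF3 than with hGR. Over all 28 members the difference was above 0 for 18 and below 0 for 10. Over all 9944 probes measured on both arrays it was above 0 for 5106 and below 0 for 4838. For AW148041 the treated signals were 625 in active EBF3 caps and 573 in hGR caps, and the untreated signals were 600 and 338. Its log2 Cy3 signal differed by 0.13 between the arrays, less than the median shift of 0.26 over all probes. The plot of members by role shows each of these values.

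**Figure D2:**
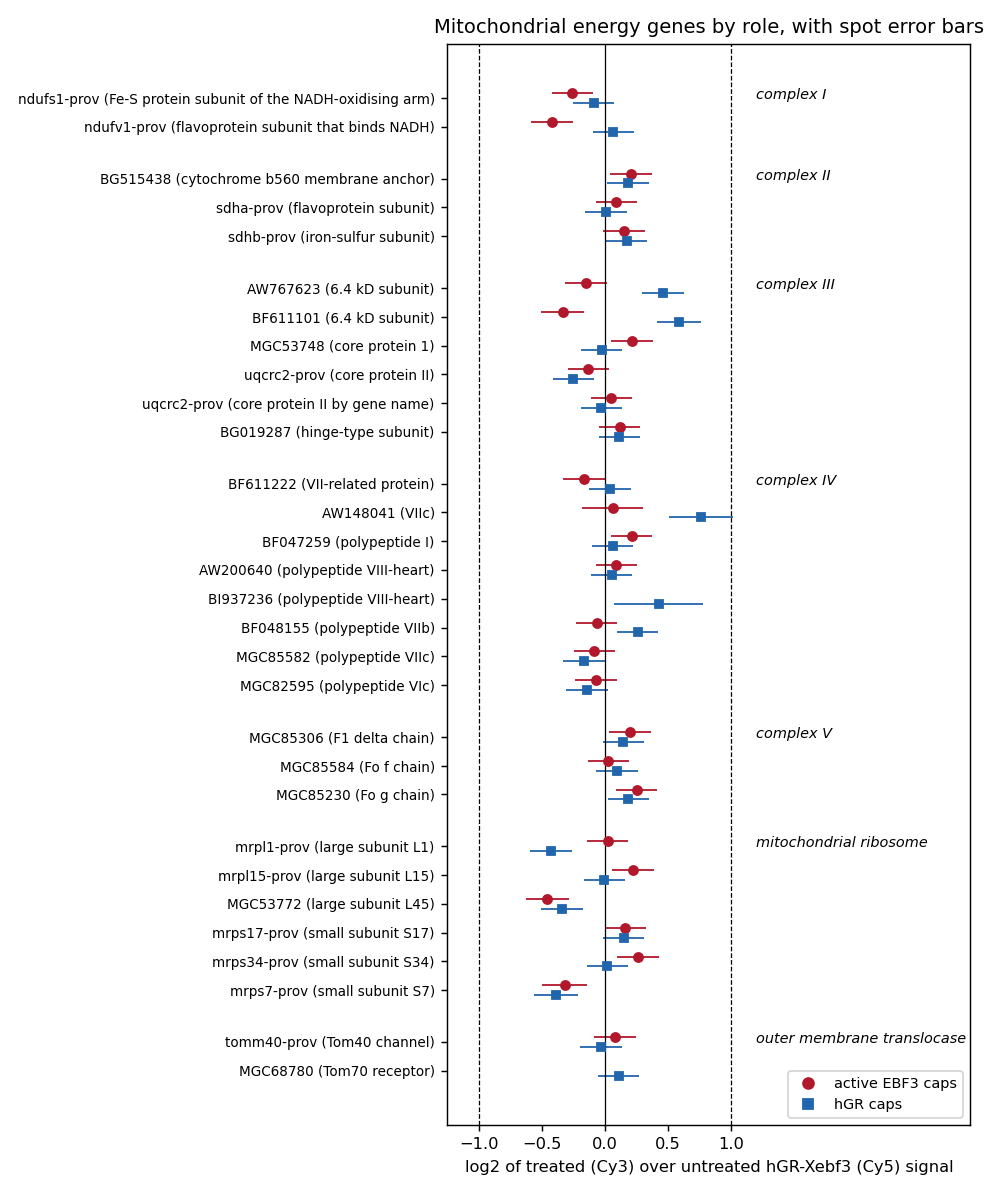
Log2 ratio of treated over untreated signal (horizontal axis) for each measured energy gene, grouped by role (rows), in active EBF3 caps (red circles) and hGR caps (blue squares). Bars are the spot error of the scanner software and dashed lines mark 2-fold, which no point reaches; the largest value is 0.76 for AW148041 in hGR caps.

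Complex I, the entry point for electrons from NADH, had 2 members by these names, and both had lower signals in active EBF3 than in untreated caps. The flavoprotein subunit ndufv1-prov, which binds NADH, had a processed signal of 12570 in active EBF3 caps and 16839 in untreated caps on that array, a log2 ratio of -0.42 ± 0.17. In hGR caps its signal was 15241, against 14577 in untreated caps, a log2 ratio of 0.06 ± 0.16. The difference between active EBF3 and hGR caps was -0.49 ± 0.23. The iron-sulfur subunit ndufs1-prov, the largest of the complex, had 18118 in active EBF3 caps against 21683 in untreated caps (-0.26 ± 0.16), and 16872 in hGR caps against 17949 in untreated caps (-0.09 ± 0.16). Its difference of -0.17 lay inside its combined spot error of 0.23.

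Complex II oxidises succinate and is also an enzyme of the citric acid cycle, and it is encoded wholly in the nucleus. Its 3 members were above 0 on each array, and only BG515438 and the sdhb-prov value in hGR caps passed 1 spot error. The catalytic flavoprotein sdha-prov had 7556 in active EBF3 caps against 7106 in untreated caps, and 6146 in hGR caps against 6111 in untreated caps. Its log2 ratios were 0.09 and 0.01, within the spot error of 0.16. The hGR ratio of sdha-prov fell below 0 with a normexp offset of 50 (-0.02) and with median centring (-0.06). The iron-sulfur subunit sdhb-prov gave 0.15 in active EBF3 caps and 0.17 in hGR caps, and BG515438, the cytochrome b membrane anchor, gave 0.21 and 0.18. The differences between active EBF3 and hGR caps ran from -0.02 to 0.08.

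Complex III hands electrons from ubiquinol to cytochrome c, and 6 probes covered it. The pair of probes matched to the human 6.4 kD subunit, a small protein of the complex, lay on opposite sides of 0 on the arrays, and BF611101 of this pair had the largest difference between active EBF3 and hGR caps of the 28 members. BF611101 had a signal of 2072 in active EBF3 caps against 2616 in untreated caps, and 3304 in hGR caps against 2199 in untreated caps. AW767623 had 40176 in active EBF3 caps against 44566 in untreated caps, and 56236 in hGR caps against 40903 in untreated caps. In both, the hGR signal was the highest of the 4 channels and the active EBF3 signal the lowest.

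On the log2 scale, BF611101 was at -0.34 ± 0.17 in active EBF3 caps and at 0.59 ± 0.17 in hGR caps, a difference of -0.92 ± 0.24. AW767623 was at -0.15 ± 0.16 in active EBF3 caps and at 0.46 ± 0.17 in hGR caps, a difference of -0.61 ± 0.23. The active EBF3 ratio of AW767623 did not reach 1 spot error. The treated channels carried most of these differences: between the arrays, log2 Cy3 signal differed by -0.67 for BF611101 and -0.48 for AW767623, where the median over all probes was 0.26, while log2 Cy5 signal differed by 0.25 and 0.12, where the median was 0.24. The SD of 0.16 between the untreated samples is that of a single channel, so it gives no scale for a difference of ratios. Over all probes measured on both arrays, the difference of ratios had an SD of 0.61 and quartiles of -0.21 and 0.22. The descriptions give the same protein for both probes, and whether they read the same transcript was not tested.

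The other subunits of complex III did not show the same order of channels. Core protein 1, MGC53748, had 15000 in active EBF3 caps against 12922 in untreated caps (0.22 ± 0.16), and 11154 in hGR caps against 11348 in untreated caps (-0.02 ± 0.16). The core proteins support assembly of the complex on the matrix side. The uqcrc2-prov probe described as core protein II was at -0.13 in active EBF3 caps and -0.25 in hGR caps, and the uqcrc2-prov probe described as the reductase complex was at 0.05 and -0.03. BG019287, the 11 kD hinge protein and the brightest member of the complex, had 64852 in active EBF3 caps against 59738 in untreated caps, and 57613 in hGR caps against 53196 in untreated caps, with log2 ratios of 0.12 in each.

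**Figure D3:**
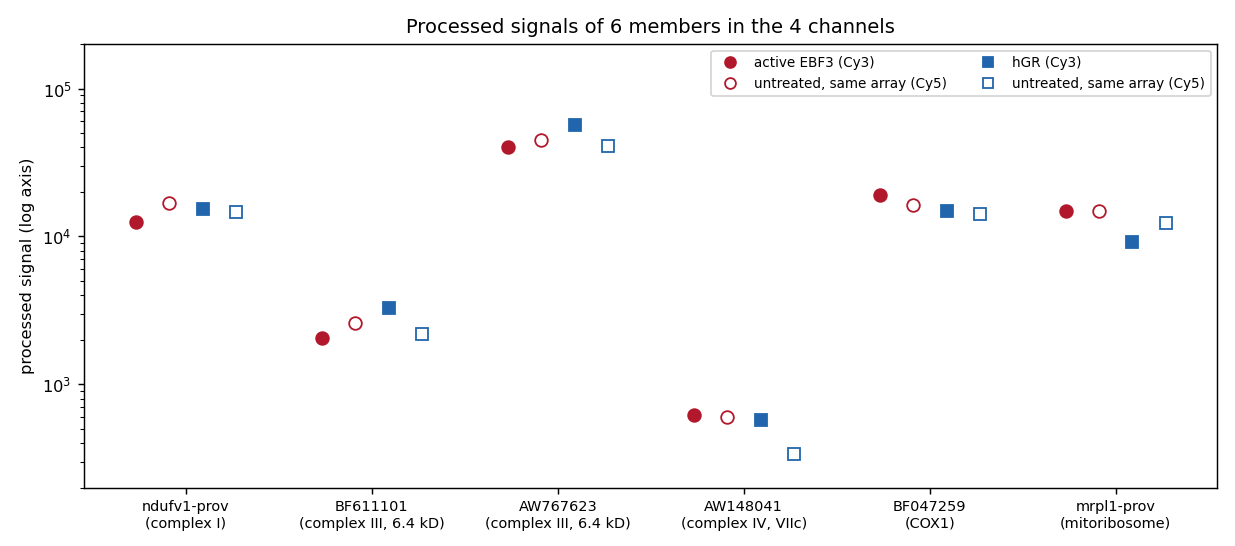
Processed signal (log axis) of 6 energy genes in active EBF3 caps (filled red circles), untreated caps on the same array (open red circles), hGR caps (filled blue squares) and untreated caps on that array (open blue squares). For BF611101 and AW767623 the hGR point is the highest and the active EBF3 point the lowest, while for AW148041 the untreated point on the hGR array is low, at 338, and the others lie between 573 and 625.

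Complex IV, cytochrome c oxidase, reduces oxygen to water and had 11 probes, of which 7 were measured with active EBF3 caps and 8 with hGR caps. Its largest value was that of AW148041, matched to mouse VIIc, a small nuclear-encoded subunit. The signals of AW148041 were 625 in active EBF3 caps against 600 in untreated caps, and 573 in hGR caps against 338 in untreated caps. The log2 ratios were 0.06 ± 0.24 in active EBF3 caps and 0.76 ± 0.25 in hGR caps, and under other corrections the hGR value was 0.34 (normexp with an offset of 50), 0.74 (normexp with no offset) and 0.85 (median centring). Unlike the 6.4 kD pair, the difference of -0.70 ± 0.35 lay mostly in the untreated channel, whose log2 signal differed by 0.83 between the arrays where the median was 0.24.

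A second probe for VIIc did not share the hGR value of AW148041. MGC85582, matched to bovine VIIc, had 9155 in active EBF3 caps against 9702 in untreated caps (-0.08 ± 0.16), and 7398 in hGR caps against 8305 in untreated caps (-0.17 ± 0.16). The pair of VIII-heart probes differed mainly in brightness. AW200640 was at 0.09 ± 0.17 in active EBF3 caps and 0.05 ± 0.16 in hGR caps, while BI937236, with 298 in hGR caps against 222 in untreated caps, was at 0.42 ± 0.35 there, a value that ran between 0.23 and 0.64 under other background and dye corrections.

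The other nuclear-encoded subunits of complex IV stayed within 0.3 of 0. BF048155, subunit VIIb, had 5582 in active EBF3 caps against 5845 in untreated caps (-0.07 ± 0.16), and 5673 in hGR caps against 4742 in untreated caps (0.26 ± 0.17). BF611222, matched to a VII-related protein, was at -0.17 in active EBF3 caps and 0.04 in hGR caps, and MGC82595, subunit VIc, was at -0.07 and -0.15. MGC85529, subunit VIa and the brightest of the complex, was at 0.04 and -0.06 but its spots were non-uniform on both arrays, so it is outside every count.

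Mitochondrial DNA encodes the core of complex IV and part of complex V, and 4 members were matched to such genes. Only BF047259, matched to the Xenopus sequence of subunit I (COX1), was measured. It had 18911 in active EBF3 caps against 16343 in untreated caps, and 14759 in hGR caps against 14141 in untreated caps. The log2 ratios were 0.21 ± 0.16 and 0.06 ± 0.16, and the difference of 0.15 lay inside its combined spot error of 0.23. BM192316 had signals of 74 and 63 in active EBF3 and hGR caps, against 126 and 90 in untreated caps, BF614733 had 161 and 93 against 124 and 71, and BG730522, the a chain (ATP6) of complex V, had 166 and 105 against 99 and 78. None of these was well above background, so they give no ratio.

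Complex V makes ATP from the proton gradient. All 3 measured members were slightly above 0 on both arrays, within 1 spot error for MGC85584 on both and for MGC85306 on the hGR array. MGC85230, the g chain of the membrane part, had 30108 in active EBF3 caps against 25314 in untreated caps (0.25 ± 0.16), and 24362 in hGR caps against 21426 in untreated caps (0.19 ± 0.16). MGC85306, the delta chain of the stalk, was at 0.20 in active EBF3 caps and 0.15 in hGR caps, and MGC85584, the f chain, was at 0.03 and 0.10. The catalytic beta subunit atp5b-prov, the brightest member, had 72656 in active EBF3 caps against 81400 in untreated caps, and 67664 in hGR caps against 71801 in untreated caps, but its spots were non-uniform on both arrays.

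The mitochondrial ribosome translates the few proteins encoded by mitochondrial DNA, and its proteins are all nuclear-encoded. Its 6 measured members spread to both sides of 0. MGC53772 (large subunit, L45) had 2762 in active EBF3 caps against 3791 in untreated caps, and 2330 in hGR caps against 2953 in untreated caps. Its log2 ratios were -0.46 ± 0.17 and -0.34 ± 0.17, the lowest of all members on the active EBF3 array. The small-subunit protein mrps7-prov was low in the same way, with 1352 in active EBF3 caps against 1687 in untreated caps (-0.32 ± 0.18) and 1123 in hGR caps against 1472 in untreated caps (-0.39 ± 0.18). For both, the difference between active EBF3 and hGR caps, -0.11 and 0.07, lay inside the combined spot error.

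By contrast, mrpl1-prov of the large subunit differed between the arrays. It had 14960 in active EBF3 caps against 14748 in untreated caps (0.02 ± 0.16), and 9129 in hGR caps against 12292 in untreated caps (-0.43 ± 0.17), the lowest member ratio on the hGR array. Its difference of 0.45 ± 0.23 was the highest of the 28 members, and it stayed under 2 combined spot errors. The remaining proteins were close to 0 or slightly above. The highest member ratio on the active EBF3 array was that of mrps34-prov, with 11237 in active EBF3 caps against 9362 in untreated caps (0.26 ± 0.16), and its hGR ratio was 0.02. The large-subunit protein mrpl15-prov was at 0.22 in active EBF3 caps and -0.01 in hGR caps, and mrps17-prov, the brightest ribosomal member, was at 0.16 and 0.15.

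The outer membrane translocase admits nearly all imported proteins. Its channel, tomm40-prov, had 3480 in active EBF3 caps against 3298 in untreated caps (0.08 ± 0.17), and 2591 in hGR caps against 2651 in untreated caps (-0.03 ± 0.17). The receptor MGC68780, a Tom70 homolog, had 15812 in hGR caps against 14671 in untreated caps (0.11 ± 0.16). Its spot on the active EBF3 array was non-uniform.

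Among roles, complex I had the lowest median on the active EBF3 array, -0.34 (n = 2), and complex V the highest, 0.20 (n = 3). The complex I value holds only for the 2 probes found by the search names. Complex I subunits annotated under other wordings lay on both sides of 0 on that array. Among them, BG023242 (0.31), AW200445 (0.22), BG161129 (0.21), BG163154 (0.20), LOC496350 (0.18), BE506967 (0.13), MGC82679 (0.06) and MGC80906 (0.045) were above 0. AW200087 (-0.51), BI446936 (-0.22) and BG264283 (-0.14) were below. On the hGR array the lowest median was that of the mitochondrial ribosome, -0.17 (n = 6), and the highest that of complex II, 0.17 (n = 3). The complex III medians were -0.04 in active EBF3 caps and 0.05 in hGR caps, and those of complex IV were -0.07 and 0.06, and median centring in place of LOWESS put both hGR medians just below 0. Differences between roles were not tested.

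Further subunits of the same machinery were annotated under other wordings, chiefly NADH-ubiquinone oxidoreductase. This list held 24 probes, of which 15 were measured with active EBF3 caps and 14 with hGR caps. None was 2-fold higher or lower on either array, which for so few probes is not apart from the 2.51% and 2.41% of all probes for active EBF3 and the 0.864% and 1.44% for hGR. The medians were 0.13 in active EBF3 caps and 0.09 in hGR caps. The import receptor tomm20-pending-prov gave -0.09 in active EBF3 caps and 0.05 in hGR caps. The mitochondrially encoded chain 1 of complex I, BG161129, had 802 in active EBF3 caps against 693 in untreated caps (0.21 ± 0.22). In hGR caps BG161129 had 951 against 616 in untreated caps, a log2 ratio of 0.63. BI446936, another numbered chain of complex I, was lower than in untreated caps on both arrays. Its log2 ratios were -0.22 ± 0.33 in active EBF3 caps and -0.24 ± 0.32 in hGR caps, within the spot errors. The hGR value of BG161129 was thus not shared by every such chain.

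A small complex I subunit on this list, AW200087 (MWFE), differed between the arrays as the 6.4 kD pair did. Singled out after its values were seen, it had 733 in active EBF3 caps against 1044 in untreated caps (-0.51 ± 0.21), and 1124 in hGR caps against 875 in untreated caps, a log2 ratio of 0.36. The difference was -0.87. The other complex I subunits of the list measured on both arrays went either way. BG264283 (KFYI) was at -0.14 in active EBF3 caps and 0.29 in hGR caps, a difference of -0.43, and the differences of BG161129 and MGC80906 (PDSW) were -0.41 and -0.30. Those of BG023242 (B15), BI446936 (chain 4) and MGC82679 were 0.00, 0.03 and 0.05. BE506967 (B14), AW200445 (B14.5B) and BG163154 (B14.5A) were higher with active EBF3 than with hGR, by 0.24, 0.23 and 0.34 on the log2 scale.

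Other mitochondrial and energy pathways were also covered. Of 58 probes for the citric acid cycle, pyruvate dehydrogenase, glycolysis, fatty acid oxidation, mitochondrial carriers, mitochondrial DNA upkeep, mitochondrial translation factors, chaperones, cytochrome c synthesis and creatine kinases, 48 were measured with active EBF3 caps and 46 with hGR caps. None was 2-fold higher or lower on either, which at the shares of all probes given above (2.51% and 2.41% for active EBF3, 0.864% and 1.44% for hGR) is not a result about these pathways. Their medians were 0.04 in active EBF3 caps and -0.07 in hGR caps. For the 44 probes measured on both arrays, the median difference between active EBF3 and hGR caps was 0.11. That difference was above 0 for 33 and below 0 for 11, beside 5106 and 4838 of all 9944 probes, and was not tested. Citrate synthase (cs-prov), the entry enzyme of the citric acid cycle, was at -0.07 in both, and the ADP/ATP carrier slc25a5-prov, which exports ATP from mitochondria, was at 0.18 and 0.35.

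A few of these genes stood further from 0, and they were singled out after their values were seen. The pyruvate dehydrogenase kinase probe 3j828-prov, for an enzyme that inhibits entry of pyruvate into the citric acid cycle, had 32992 in active EBF3 caps against 18721 in untreated caps (0.82 ± 0.17), and 15353 in hGR caps against 14378 in untreated caps (0.09). The fatty acid oxidation enzyme acadm-prov had 26293 in active EBF3 caps against 25613 in untreated caps (0.04), and 14892 in hGR caps against 23786 in untreated caps (-0.68). The probe MGC53498, similar to carnitine palmitoyltransferase 1, the gate for fatty acid entry into mitochondria, was low in both, at -0.71 in active EBF3 caps and -0.70 in hGR caps. The glycolysis list had medians of 0.06 in active EBF3 caps (n = 10), which was -0.02 with median centring, and -0.21 in hGR caps (n = 8).

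**Figure D4:**
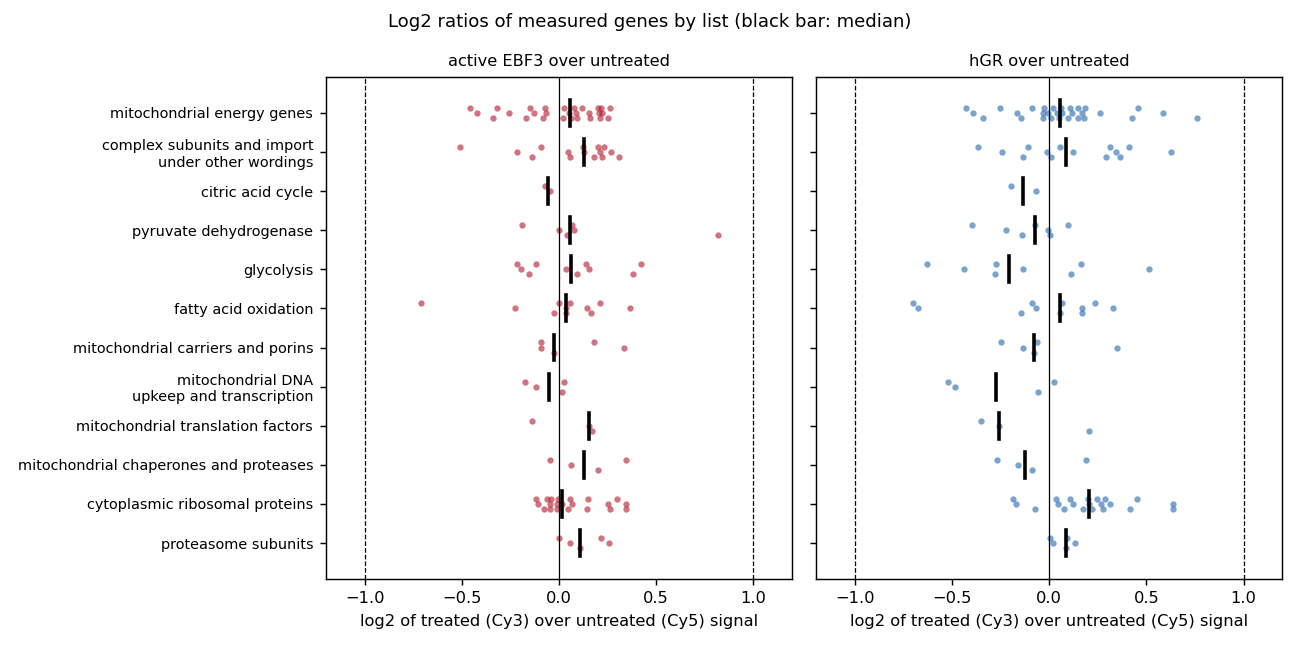
Log2 ratio of treated over untreated signal (horizontal axes) for each measured probe of the energy genes, of most other mitochondrial and energy lists, and of the cytoplasmic ribosomal proteins and proteasome subunits (rows), in active EBF3 caps (left) and hGR caps (right). The cytochrome c synthesis and creatine kinase lists are not drawn. Black bars are medians and dashed lines 2-fold, which no point reaches; the cytoplasmic ribosomal proteins have a median of 0.20 in hGR caps.

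Cytoplasmic ribosomal proteins and proteasome subunits gave a view of other abundant housekeeping genes. The energy genes had medians of 0.05 in active EBF3 caps and 0.06 in hGR caps. For 21 measured cytoplasmic ribosomal protein probes on each array the medians were 0.01 in active EBF3 caps, which was -0.08 with median centring, and 0.20 in hGR caps. In hGR caps 18 of 21 were above 0, where 19 of 30 energy genes and 5405 of all 10422 measured probes were. For 5 proteasome subunits the medians were 0.11 and 0.09. The difference between active EBF3 and hGR caps was below 0 for 10 of 28 energy genes and for 16 of 20 cytoplasmic ribosomal proteins, with medians of 0.05 and -0.16. Over all probes it was below 0 for 4838 of 9944. These differences between lists were not tested.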

How the data were processed

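Animal cap RNA was compared on 2 arrays, and the labelled treatment of each channel gave the groups. The authors' spot intensity values came from Agilent Feature Extraction 8.1.1.1, and per the file headers background and a fitted spatial trend were removed from each channel's intensity before a LOWESS dye correction. The deposited log10 ratio is Cy5 over Cy3, and its deposited log10 error was put on the log2 scale as the spot error. The authors' series table, read as a score of unstated scale, equalled that ratio with the sign turned for 100% of values within 0.0001; its medians were -0.0010 and -0.0015.

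The measure was log2 of processed Cy3 over Cy5. Controls and non-uniform spots were left out and 2-fold was the threshold, after the methods of the study. The members and lists were chosen with earlier results of these data known. No test was run. The naming rule picked the 5 highest and 5 lowest members per comparison, the brightest of each role, and the mitochondrially encoded members. Other members of the role groups were also named, outside this rule. List genes past 2-fold would have been named, and there were none, so the list genes named were chosen after their values were seen. The ratio and counting step was run on simulated signals with planted folds, which checks the arithmetic only and not background, dye or array effects. Alternatives used normexp and loess in limma 3.58.1, other filters and other memberships. Names of 14 members matched RefSeq genes of Xenopus_laevis_v10.1. Array number limits the precision.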

Additional observations from a re-analysis of the deposited data

Results flagged for a closer look

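The genes below lay above 0 on one array and below 0 on the other, each by more than 1 spot error, and the difference between the groups was not tested. How many of all measured probes did the same was not counted, so this pattern does not set these genes apart. Of the genes below, AW200087 and acaa2-prov are from the other lists and are not members. BF611101, for the 6.4 kD subunit of complex III, had a log2 ratio of -0.34 in active EBF3 caps and 0.59 in hGR caps. AW200087, for the MWFE subunit of complex I, had -0.51 in active EBF3 caps and 0.36 in hGR caps. The fatty acid oxidation enzyme acaa2-prov had -0.22 in active EBF3 caps and 0.33 in hGR caps. Each ratio rests on 1 spot.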

How the results depend on the processing

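No count of members past 2-fold changed under any alternative that kept the 2-fold threshold: each stayed at 0 with normexp and loess, with median centring, with the deposited ratios, with dim or non-uniform spots kept, with probes of a gene averaged, with membership by RefSeq symbol, and with membership widened to other wordings, which was chosen after seeing the data. With 1.5-fold in place of 2-fold on the main measure, 2 members were higher in hGR caps. The difference between active EBF3 and hGR caps had 3 lower members, and the other counts stayed at 0. The 1.5-fold counts were not repeated under other corrections. There BF611101 on the hGR array fell from 0.587 to 0.429 (normexp offset of 50), 0.553 (no offset) and 0.512 (median centring), below the log2 line of 0.585. The median log2 ratio of members ran from -0.01 to 0.08 for active EBF3 caps and from -0.02 to 0.06 on the hGR array, below 0 with median centring on both and with RefSeq symbols on the hGR array, and the median difference ran from 0.03 to 0.08. The deposited ratios equal the main measure by construction. Of 40 ratios of members picked by the naming rule, 38 moved by less than the SD between untreated samples with a normexp offset of 50, as did 39 with no offset and 39 with median centring. That SD is of a single channel, so it is only a rough yardstick for ratios. BF611101 on the hGR array stayed just inside it with the offset of 50. With median centring 5 of the ratios changed sign and with a normexp offset of 50 2 did. The exceptions in size were AW148041 on the hGR array (0.34 with a normexp offset of 50) and BI937236 on the hGR array (0.23, 0.62 and 0.64). Signals near background limit these dim probes. No paired analysis was possible because a group was a single array, so there was also no replicate to leave out.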
